A study of Rattus norvegicus with 32 samples.

Results

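The 41 genes described here are those of the deposited table whose symbol is Psm, then a letter from a to f, then a digit. The table held 12901 genes. The choice rests on names alone and used no measured value. They comprise 7 Psma genes of the outer rings of the proteasome core, 9 Psmb genes of its inner rings, 7 Psmc genes, 13 Psmd genes, and 5 genes of activators and an inhibitor (Psme1 to Psme4 and Psmf1). The pattern also took in Psmc3ip, which encodes a meiotic recombination cofactor that binds Psmc3 and is no proteasome subunit. Psmd5 and Psmd9 encode chaperones that help to assemble the regulatory particle rather than subunits of the finished complex, and Psma3l is a RefSeq synonym of Psma3. Psma8, Psmb8 and Psmd10 were not analysed here.

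The proteasome is the cell's main machine for breaking down proteins tagged with ubiquitin. Its barrel-shaped 20S core has outer rings of alpha subunits, which gate the entry, and inner rings of beta subunits, of which Psmb5, Psmb6 and Psmb7 carry the proteolytic sites. The 19S particle on its ends binds ubiquitin, removes it, and unfolds the protein with a ring of ATPases. Interferon induces Psmb8, Psmb9 and Psmb10, which replace the 3 constitutive catalytic subunits and form the immunoproteasome. In skeletal muscle the proteasome degrades contractile proteins during wasting, and Nfe2l1 is known as the factor that raises its subunits together when its activity falls short.

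RNA came from the gastrocnemius, a calf muscle, of male rats on chow that were 20 weeks old. The libraries fall into 4 groups: control rats at room temperature (control_RT, n = 7), control rats after 2 weeks at 4 °C (control_4C, n = 7), UCP1 knockout rats at room temperature (KO_RT, n = 9) and UCP1 knockout rats after 2 weeks at 4 °C (KO_4C, n = 9). KO_RT libraries are called by the number in their column of the table (KO8, KO9 and so on). UCP1 is the uncoupling protein of brown fat, which turns the mitochondrial proton gradient into heat. The sources name neither the strain nor the way in which the gene was disrupted. Ucp1 was not analysed here, and its level gives no check of the genotype. The design text counts 7 control and 9 knockout rats, and no label ties a warm and a cold muscle to the same or to different rats, so the p-values measure the spread between these samples, which may be technical. Levels are CPM, counts scaled by library total and TMM factor, and each change is a log2 fold change with its standard error (SE) from edgeR's quasi-likelihood test over 11594 genes. A gene is said to have risen or fallen where its Benjamini-Hochberg adjusted p was under 0.05. Counts at an unadjusted p under 0.05 have no share of all genes beside them, as none was computed. Reads came from the 3′ end of transcripts, and levels are not compared between genes.

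Library totals ran from 7.28e+06 to 2.58e+07 counts, and all 41 genes passed the filter on low counts. All 8 skeletal muscle markers listed were present, and their summed level lay between 98381 and 182132 CPM in every library. In the cold 4 of the 8 fell and 0 rose in each genotype, and the median of the sum was 154269 CPM in control_RT and 120963 CPM in control_4C, and 141218 CPM in KO_RT and 122281 CPM in KO_4C. The part of this shift in the results that follow was not tested. The libraries differed in 1 further measure, here called the transcript-loss index: the mean log2 CPM of 100 other genes that were lowest in knockout library KO10 relative to the remaining KO_RT libraries. It averaged 4.84 ± 0.55 in control_RT (SD, n = 7), 6.03 ± 0.16 in control_4C (SD, n = 7), 5.64 ± 0.87 in KO_RT (SD, n = 9) and 6.08 ± 0.17 in KO_4C (SD, n = 9), and the control groups did not overlap. The 4 libraries lowest on it were KO8 and KO10 of KO_RT, at 4.42 and 3.89, and control_RT replicates 2 and 3, at 3.97 and 4.42. KO10 is low by construction. In whole muscle, fewer cells of a type and less RNA per cell cannot be told apart.

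The promoter stretches printed next are the 130 bases before the RefSeq transcription start (build GRCr8, strand of the gene), in lower case with motif matches in capitals. Psma1, Psma2 and Psma5 are shown because they are the alpha subunits that rose in the cold, and each holds a CCAAT box, the NF-Y element (Psma1 at chr1:177887858-177887987, minus strand; Psma2 at chr17:55260442-55260571, minus strand; Psma5 at chr2:198584375-198584504, plus strand). Psmb6 is shown because it is the catalytic subunit that fell, and it holds TGACNNNGC, the core of the antioxidant response element that Nfe2l1 and Nfe2l2 bind (chr10:55737758-55737887, plus strand). Psmb10 and Psme2 are shown because they hold GAAANNGAA, the core of the interferon-stimulated response element, and passed no test (Psmb10 at chr19:50743293-50743422, minus strand; Psme2 at chr15:33052752-33052881, minus strand). In Psmb10 the capitals of the first run are 2 overlapping matches.
Psma1: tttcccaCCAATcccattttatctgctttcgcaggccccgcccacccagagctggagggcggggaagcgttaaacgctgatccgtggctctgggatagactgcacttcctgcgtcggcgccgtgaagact
Psma2: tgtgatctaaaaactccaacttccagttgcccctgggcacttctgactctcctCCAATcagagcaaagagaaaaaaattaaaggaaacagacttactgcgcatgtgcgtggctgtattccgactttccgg
Psma5: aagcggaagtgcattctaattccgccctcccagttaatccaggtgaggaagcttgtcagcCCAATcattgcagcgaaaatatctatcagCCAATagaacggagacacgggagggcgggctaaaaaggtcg
Psmb6: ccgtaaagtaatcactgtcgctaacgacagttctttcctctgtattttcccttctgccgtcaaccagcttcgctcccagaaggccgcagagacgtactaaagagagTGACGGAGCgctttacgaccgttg
Psmb10: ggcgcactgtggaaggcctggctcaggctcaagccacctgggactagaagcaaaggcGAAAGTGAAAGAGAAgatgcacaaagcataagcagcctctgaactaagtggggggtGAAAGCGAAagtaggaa
Psme2: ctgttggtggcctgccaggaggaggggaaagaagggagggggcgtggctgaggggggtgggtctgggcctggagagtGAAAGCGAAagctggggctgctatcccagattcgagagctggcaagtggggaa

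Of the 41 genes, 36 had a RefSeq promoter of 300 bases, from 250 before to 50 after the start. Searched on both strands, CCAAT was in 18 of the 36 (50.0%) against 37.5% of 33469 rat promoters. TGACNNNGC was in 7 (19.4%) against 12.1%, and GAAANNGAA in 7 (19.4%) against 9.71%. The 36 are 1 promoter per gene. The 33469 were not reduced to 1 per gene or to genes counted in these libraries, so the shares come from unlike sets. Among the genes that rose in cold control rats and had a promoter, 5 of 8 held CCAAT (Psma1, Psma2, Psma5, Psmb9 and Psmc3ip), 0 held TGACNNNGC and 1 held GAAANNGAA (Psmd11). Among those that fell, 2 of 4 held CCAAT (Psmc3 and Psmd4) and 1 held TGACNNNGC (Psmb6). In the Psmb9 window the CCAAT box lay on the opposite strand, 22 to 26 bases after the start, and the letters GAAANNGAA were not found.

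Proteasome genes differed in both directions between cold and warm control rats. The transcript-loss index did not overlap between these groups, so it and the temperature cannot be told apart. Of the 41 genes 9 rose and 6 fell, which is 22.0% and 14.6%. Of all genes tested 12.4% were called higher and 8.28% lower. The risers were Psma1, Psma2, Psma5, Psmb9, Psmc3ip, Psmd5, Psmd8, Psmd11 and Psmd14, and the fallers were Psma6, Psma7, Psmb6, Psmc3, Psmd4 and Psmd6. The median log2 change of the 41 was -0.00, beside 0.03 over all genes tested. Their summed level was 6944 ± 330 CPM in control_RT (SD, n = 7) and 6722 ± 371 CPM in control_4C (SD, n = 7), with overlapping ranges. This balance depended on scaling. With library totals alone and no TMM factors, under which the median change of all genes was 0.19 (log2), 15 members rose and 2 fell (Psma7 and Psmb6), where 2433 and 408 of the 11594 genes were called. Of the 15 calls 11 were kept, and those of Psma6, Psmc3, Psmd4 and Psmd6 were lost. The 41 genes took 0.662 ± 0.029% of all counts in control_RT and 0.712 ± 0.018% in control_4C (SD, n = 7 each).

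**Figure D1:**
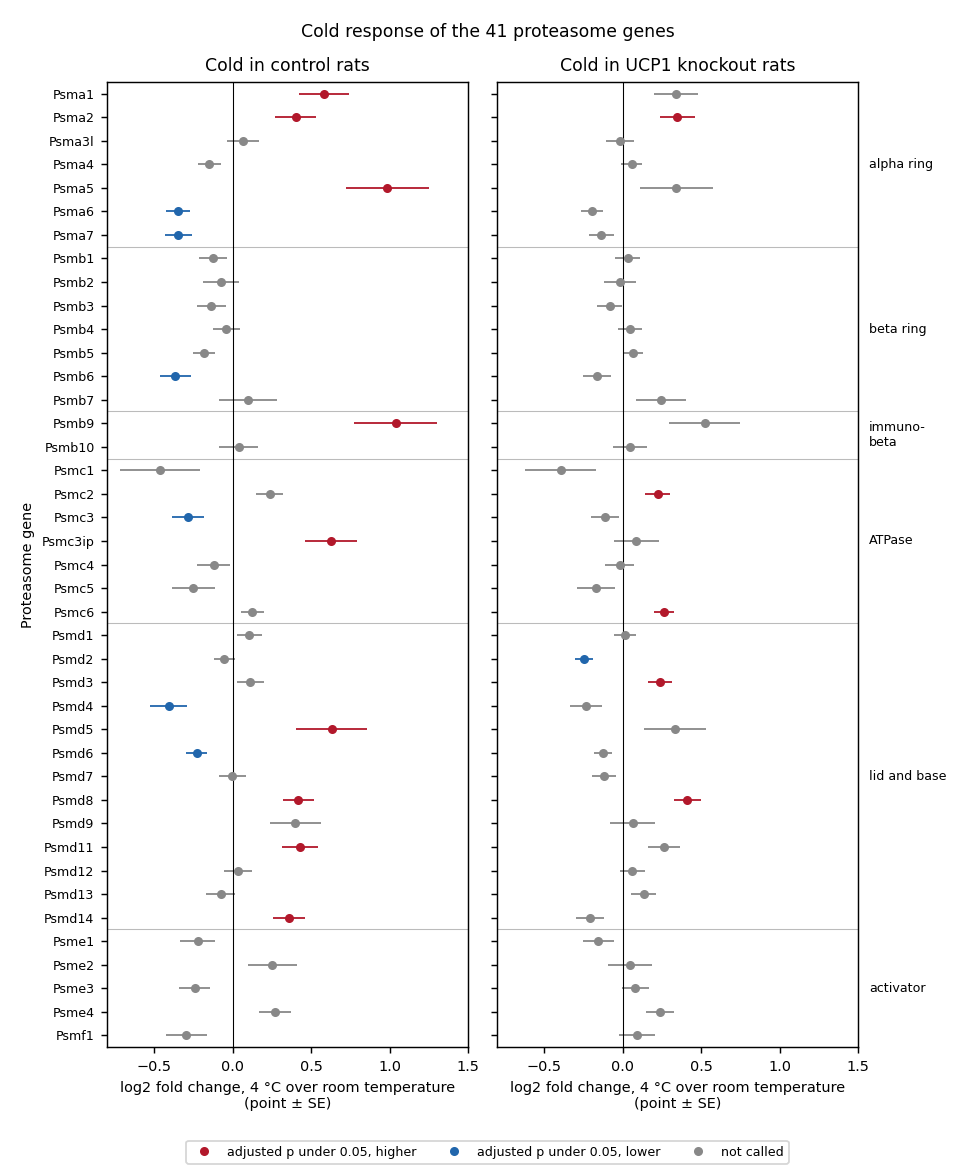
Log2 fold change of 4 °C over room temperature for each of the 41 genes, in control rats (left, 7 against 7 libraries) and in UCP1 knockout rats (right, 9 against 9); points are estimates, bars are SE, red and blue mark adjusted p under 0.05. In control rats 9 genes are red and 6 blue, in knockout rats 5 are red and 1 blue, and neither ring nor particle moves as a block.

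The alpha ring split. Psma5, an outer-ring subunit, had a lowest, median and highest level of 21.9, 36.9 and 65.3 CPM in control_RT and of 69.8, 84.7 and 89.3 CPM in control_4C. Every cold control library lay above every warm one, and the change was 0.98 ± 0.27 (SE; adjusted p = 0.00851, edgeR). In KO_RT, Psma5 lay at 20.4 CPM in KO8 and 16.7 CPM in KO10 and between 68.8 and 86.9 CPM in the other 7, and KO_4C ran from 64.3 to 94.2 CPM. The 2 low knockout libraries were thus below every library of the cold groups, while the other 7 lay within the range of KO_4C.

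Psma1 had 38.9, 65.8 and 87.5 CPM (lowest, median, highest) in control_RT and 93.7, 97.6 and 115 CPM in control_4C, groups that did not overlap (0.58 ± 0.16, SE; adjusted p = 0.00963, edgeR). Psma2 ran from 63.6 to 115 CPM in control_RT, median 86.1, and from 102 to 143 CPM in control_4C, median 123.1, with overlap (0.40 ± 0.13, SE; adjusted p = 0.0237). Its call was lost without control_RT replicate 2 or without control_4C replicate 3, where the adjusted p reached 0.0673. Psma6 went the other way, from 67.6, 79.5 and 91.6 CPM in control_RT to 59.6, 62.5 and 66.5 CPM in control_4C, with no overlap (-0.35 ± 0.08, SE; adjusted p = 0.00141). Psma7 ran from 550 to 745 CPM in control_RT and from 444 to 573 CPM in control_4C (-0.35 ± 0.09, SE; adjusted p = 0.00452). Psma3l, at 0.07 ± 0.10 (SE; adjusted p = 0.697), and Psma4, at -0.15 ± 0.07 (SE; adjusted p = 0.147), did not pass.

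Of the 7 constitutive beta genes, 1 fell in cold control rats and none rose. Psmb6, the subunit with caspase-like activity, had 98.4, 115 and 124 CPM (lowest, median, highest) in control_RT and 71.1, 91.6 and 101 CPM in control_4C, with slight overlap (-0.37 ± 0.10, SE; adjusted p = 0.00781, edgeR). Psmb5, the chymotrypsin-like subunit, was lower in 7 of 7 cold libraries than the warm mean, at 355 ± 26 CPM (SD, n = 7) against 404 ± 15 CPM (SD, n = 7), and missed the threshold (-0.18 ± 0.07, SE; adjusted p = 0.0612). DESeq2, halved counts and a fit of the control groups alone called it lower. Psmb7, the trypsin-like subunit, spread widely, from 109 to 191 CPM in control_RT and from 112 to 253 CPM in control_4C (0.10 ± 0.18, SE; adjusted p = 0.752). Psmb1, Psmb2, Psmb3 and Psmb4 changed by -0.14 to -0.04, with no call.

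Of the inducible catalytic subunits, Psmb9 rose and Psmb10 did not pass. Psmb9, the counterpart of Psmb6, had 1.67, 5.41 and 6.64 CPM (lowest, median, highest) in control_RT and 7.54, 10.4 and 13.2 CPM in control_4C. The groups did not overlap, and the change was 1.04 ± 0.27 (SE; adjusted p = 0.00510, edgeR). It rests on few reads, with deposited counts of 20 to 96 per library in control_RT and 86 to 224 in control_4C. In KO_RT Psmb9 ran from 3.15 CPM in KO8 to 11.8 CPM, median 8.65, and in KO_4C from 7.03 to 19.4 CPM, median 10.1 (0.52 ± 0.23, SE; adjusted p = 0.128). Psmb10, the counterpart of Psmb7, averaged 39.2 ± 4.4 CPM in control_RT (SD, n = 7), 40.2 ± 8.5 in control_4C (SD, n = 7), 35.6 ± 4.5 in KO_RT (SD, n = 9) and 36.8 ± 6.8 in KO_4C (SD, n = 9), with changes in the cold of 0.04 ± 0.12 (SE) and 0.05 ± 0.11 (SE) in control and knockout rats.

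Each inducible subunit was set against its constitutive counterpart as the log2 ratio of their counts within a library, which needs no scaling factor. These are ratios of RNA in whole muscle, and exchange of subunits in the protein complex was not measured. The ratio of Psmb9 to Psmb6 rose from -4.58 ± 0.69 in control_RT (SD, n = 7) to -3.11 ± 0.23 in control_4C (SD, n = 7), without overlap, a difference of 1.48 (two-sided exact permutation p = 0.000583, adjusted p = 0.00466 over 8 tests). In knockout rats it went from -3.89 ± 0.85 (SD, n = 9) to -3.16 ± 0.55 (SD, n = 9), with overlap (difference 0.74, exact permutation p = 0.0436, adjusted p = 0.0871). Between genotypes it differed by 0.69 at room temperature (exact permutation adjusted p = 0.175) and by -0.05 at 4 °C (exact permutation adjusted p = 0.810). Libraries low on the transcript-loss index held the lowest ratios of their groups: control_RT replicate 2 (-6.03), and KO8 (-5.67) and KO10 (-4.66) in KO_RT. Control_RT replicate 3, also low on it, was at -4.35, within the range of its group. With the index as a covariate, Psmb9 itself changed by 0.20 in cold control rats (adjusted p = 0.717, edgeR). The ratio was not fitted with the index. Since levels are not compared between genes, changes of the ratio and not its level are read here.

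The ratio of Psmb10 to Psmb7 did not pass in the cold, with differences of -0.06 in control rats and -0.17 in knockout rats (exact permutation adjusted p = 0.810 and 0.438). It was lower in knockout than in control rats by 0.45 at room temperature and 0.56 at 4 °C on the log2 scale, with exact permutation p-values of 0.0224 and 0.0238 that became 0.0634 in both cases over the 8 tests. Without the 4 libraries lowest on the transcript-loss index both passed, at adjusted p = 0.0337 and 0.0476 by the exact permutation test. Psmb7 had a higher estimate in KO_4C than in control_4C, by 0.46 ± 0.17 (SE) with an adjusted p of 0.175 (edgeR). Intestinal epithelial markers moved with this ratio in part. At 4 °C all 8 of those tested had a negative knockout estimate (median -1.03) and an unadjusted p under 0.05, though 0 were called. Their sum was highest in control_4C replicate 3 (989 CPM), control_RT replicate 4 (768 CPM) and KO10 (404 CPM) within their groups, and these libraries also held the highest ratio of their groups (-1.10, -1.41 and -1.79). In KO_4C the library with the highest sum, replicate 3 (287 CPM), had a ratio of -2.70, where the highest was -1.89. The difference between genotypes in the ratio was -0.40 at 4 °C without control_4C replicate 3 and -0.35 at room temperature without control_RT replicate 4. The part of either set of markers in the ratio was not tested.

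**Figure D2:**
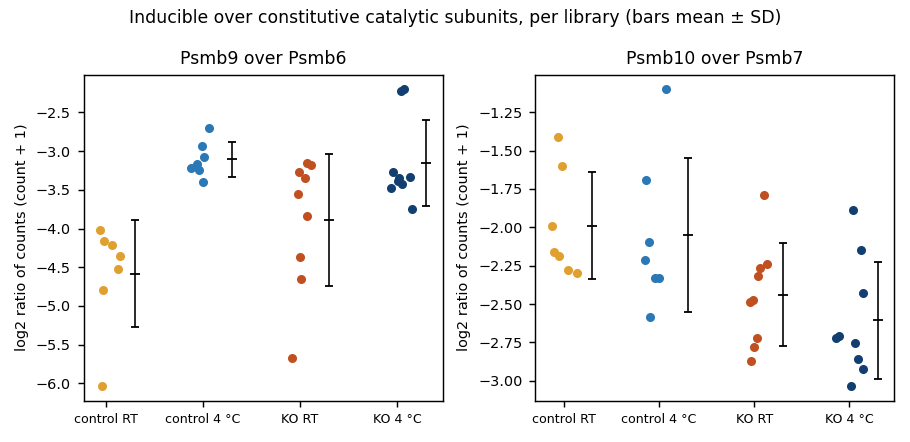
Log2 ratio of counts of an inducible over its constitutive catalytic subunit (count + 1) in each library, by group; bars are mean ± SD. For Psmb9 over Psmb6 the 7 cold control libraries (-3.40 to -2.70) lie above the 7 warm ones (-6.03 to -4.02), and for Psmb10 over Psmb7 the groups overlap.

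Markers of other cell types are given beside Psmb9, which immune cells also express. Of 10 macrophage markers 5 rose in cold control rats and 6 in cold knockout rats, and 0 fell. Their summed level was 181 to 292 CPM in control_RT, 250 to 364 in control_4C, 141 to 218 in KO_RT and 200 to 394 in KO_4C. KO_4C replicate 2, which held the highest macrophage sum of its group, had 18.3 CPM of Psmb9, the second highest of its group. In control_4C it was otherwise: replicate 3, with the highest macrophage sum (364 CPM), had the lowest Psmb9 level (7.54 CPM). Of the 10 lymphocyte markers listed, Cd3d, Cd3e and Cd3g were not analysed here, and the other 7 summed to 3.76 to 19.9 CPM over all libraries, with 0 of the 4 tested called in either cold comparison. Erythroid markers also rose in cold control rats (4 of 5 tested, median log2 change 1.85), and their sum was 228 to 754 CPM in control_RT and 379 to 3470 CPM in control_4C. In cold knockout rats 1 of these 5 rose. Of 7 endothelial markers 0 were called in cold control rats and 1 rose in cold knockout rats. The part of these cells in the Psmb9 result was not tested.

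Among the genes named for the ATPase ring, which unfolds substrates and opens the core, the cold control comparison called 1 subunit. Psmc3 had 359, 400 and 480 CPM (lowest, median, highest) in control_RT and 292, 329 and 364 CPM in control_4C, groups that overlapped (-0.28 ± 0.10, SE; adjusted p = 0.0442, edgeR). The call was lost, with an adjusted p of up to 0.126, when any 1 of control_RT replicates 2, 3, 5 and 6 or control_4C replicates 1, 2, 3, 4 and 7 was left out. Psmc1 was lower than the warm mean in 7 of 7 cold control libraries, at 308 ± 78 against 425 ± 88 CPM (SD, n = 7 each), but its SE was wide (-0.46 ± 0.26; adjusted p = 0.207). Psmc2 missed the threshold at 0.24 ± 0.09 (SE; adjusted p = 0.0538), and Psmc4, Psmc5 and Psmc6 lay between -0.25 and 0.12. The recombination cofactor Psmc3ip rose from 6.15 ± 1.05 to 9.47 ± 2.36 CPM (SD, n = 7 each; 0.62 ± 0.17, SE; adjusted p = 0.00660).

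Of the 13 Psmd genes, 4 rose and 2 fell in cold control rats. Psmd8, a lid subunit, had 159, 174 and 200 CPM (lowest, median, highest) in control_RT and 203, 234 and 269 CPM in control_4C, with no overlap (0.42 ± 0.10, SE; adjusted p = 0.00235, edgeR). Psmd11, the lid subunit linked to raised proteasome activity in stem cells, ran from 165 to 231 CPM and from 218 to 308 CPM (0.43 ± 0.12, SE; adjusted p = 0.00729). Psmd14, the metalloprotease that cuts ubiquitin chains off incoming substrates, ran from 34.2 to 47.4 CPM and from 46.2 to 59.0 CPM (0.36 ± 0.10, SE; adjusted p = 0.0109). Both overlapped slightly between groups.

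Psmd4, a ubiquitin receptor of the base, fell from 40.4, 48.8 and 53.1 CPM (lowest, median, highest) in control_RT to 33.4, 34.4 and 40.0 CPM in control_4C, just without overlap (-0.41 ± 0.12, SE; adjusted p = 0.0103, edgeR). Psmd6, a lid subunit, fell from a range of 101.6 to 114 CPM to one of 79.9 to 101.5 CPM (-0.23 ± 0.07, SE; adjusted p = 0.0131). The assembly chaperone Psmd5 rose from 9.25 ± 1.94 to 14.3 ± 2.5 CPM (SD, n = 7 each; 0.63 ± 0.23, SE; adjusted p = 0.0441). That call was lost, at an adjusted p of up to 0.0980, without any 1 of control_RT replicates 2, 3, 6 and 7, control_4C replicates 1, 3, 4, 5 and 7, or KO_4C replicate 6. The other assembly chaperone, Psmd9, was at 5.96 ± 1.32 and 7.89 ± 0.91 CPM (SD, n = 7 each; adjusted p = 0.0761). The remaining 6 genes, Psmd1, Psmd2, Psmd3, Psmd7, Psmd12 and Psmd13, changed by -0.08 to 0.11 with no call.

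**Figure D3:**
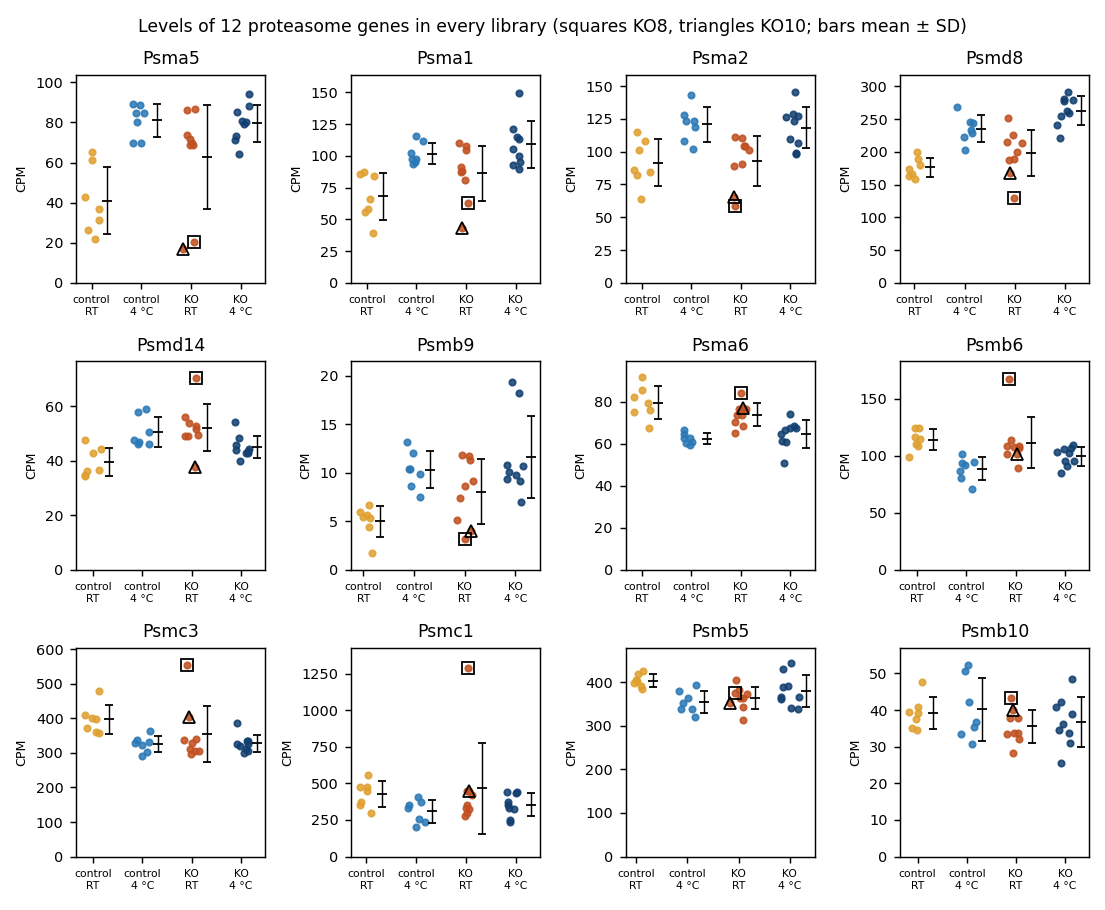
TMM-scaled CPM of 12 proteasome genes in each of the 32 libraries, by group on a linear axis from 0; points are libraries, bars mean ± SD, squares mark KO8 and triangles KO10. Psma5, Psma1 and Psmb9 show cold control libraries wholly above warm ones, Psma6 the reverse, and KO8 stands apart at 1286 CPM of Psmc1.

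No activator or inhibitor gene was called in cold control rats by edgeR at an adjusted p under 0.05. An unadjusted p under 0.05 was held by 3 of the 5, and the share of all genes at that cut was not computed. DESeq2 and halved counts called Psme3 lower. Psme1 and Psme2, the interferon-inducible PA28 pair, changed by -0.22 ± 0.11 (SE; adjusted p = 0.153) and 0.25 ± 0.16 (SE; adjusted p = 0.272). Psme3, the nuclear PA28 gamma, went from 36.6 ± 3.0 to 30.9 ± 4.5 CPM (SD, n = 7 each; adjusted p = 0.0752). Psme4, the PA200 activator, went from 237 ± 27 to 286 ± 37 CPM (SD, n = 7 each) and was above the warm mean in 7 of 7 cold libraries (adjusted p = 0.0530). Leaving out any 1 of 6 libraries moved Psme4 past the threshold, and any 1 of 5 moved Psme3 past it. Psmf1, the inhibitor PI31, changed by -0.30 ± 0.13 (SE; unadjusted p = 0.0281) and was called lower without control_4C replicate 7 (adjusted p = 0.0276).

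In cold knockout rats 5 of the 41 genes rose and 1 fell, which is 12.2% and 2.44%. Of all genes tested 7.49% were called higher and 6.28% lower. The risers were Psma2, Psmc2, Psmc6, Psmd3 and Psmd8, and the faller was Psmd2. The median log2 change of the 41 was 0.05, beside 0.01 over all genes tested. Their summed level was 6969 ± 446 CPM in KO_RT (SD, n = 9) and 7080 ± 480 CPM in KO_4C (SD, n = 9). With library totals alone 10 members rose and 0 fell, where 1482 and 441 of the 11594 genes were called and the median change of all genes was 0.10 (log2). Of the 6 calls 5 were kept.

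Psmd8 rose by nearly the same amount as in control rats, from 129, 201 and 252 CPM (lowest, median, highest) in KO_RT to 221, 262 and 292 CPM in KO_4C (0.41 ± 0.09, SE; adjusted p = 0.000999, edgeR). Its interaction, the knockout response minus the control response, was -0.01 ± 0.13 (SE). Psmc6, an ATPase subunit, had 94.9, 114 and 124 CPM in KO_RT and 115, 139 and 156 CPM in KO_4C (0.26 ± 0.06, SE; adjusted p = 0.00446). Psmd2, the scaffold subunit of the base, had 288, 309 and 320 CPM in KO_RT and 235, 261 and 285 CPM in KO_4C, with no overlap (-0.25 ± 0.06, SE; adjusted p = 0.00328). In control rats Psmd2 changed by -0.05 ± 0.07 (SE), and its interaction of -0.19 ± 0.09 (SE) had an adjusted p of 0.335.

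The other 3 calls in knockout rats lay nearer the threshold. Psma2 ran from 58.8 to 111 CPM in KO_RT and from 98.1 to 145 CPM in KO_4C (0.35 ± 0.11, SE; adjusted p = 0.0335, edgeR), and the call was lost without any 1 of KO8, KO9, KO10 and KO11 or of KO_4C replicates 1, 4, 7, 8 and 9. Psmd3, a lid subunit, went from 541 ± 62 to 638 ± 58 CPM (SD, n = 9 each; adjusted p = 0.0315), lost without any 1 of KO8, KO9, KO13 and KO14 or of KO_4C replicates 5, 6, 7 and 8. Psmc2 changed by 0.22 ± 0.08 (SE; adjusted p = 0.0491) and lost its call in 24 of the 32 fits without 1 library, being kept without control_RT replicate 2, KO15, KO16, KO17, control_4C replicate 2 or 3, or KO_4C replicate 2 or 3. Psmd11 (0.26 ± 0.10, SE; adjusted p = 0.0774), Psmb5 (0.07 ± 0.06, SE; adjusted p = 0.524), Psmb6 (-0.16 ± 0.09, SE; adjusted p = 0.229) and Psmd4 (-0.23 ± 0.10, SE; adjusted p = 0.126) did not pass, nor did the 5 activator and inhibitor genes, which lay between -0.16 and 0.24. Psme4 passed without KO_4C replicate 2 (adjusted p = 0.0142).

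The genes followed through all groups had these levels in knockout rats. Psmb5 had 314, 364 and 405 CPM (lowest, median, highest) in KO_RT and 340, 367 and 445 CPM in KO_4C. Psmb6 had 88.7, 107 and 167 CPM in KO_RT and 84.4, 103 and 109 CPM in KO_4C, and Psmb7 139, 188 and 277 CPM and 153, 210 and 398 CPM. In each of these the 2 groups overlapped. Psmd4 had 31.8, 38.9 and 62.5 CPM in KO_RT and 28.8, 33.9 and 43.5 CPM in KO_4C, and Psmd11 181, 215 and 254 CPM and 202, 246 and 402 CPM. Psme1 averaged 44.3 ± 6.0 CPM in KO_RT and 39.7 ± 6.4 CPM in KO_4C (SD, n = 9 each). Psme2 had 31.0, 44.1 and 48.6 CPM in KO_RT and 35.2, 40.4 and 59.6 CPM in KO_4C. Overlap was again the rule in these genes. Psme3 averaged 32.8 ± 4.2 and 34.8 ± 3.3 CPM and Psme4 266 ± 26 and 314 ± 49 CPM in the same order (SD, n = 9 each), and Psmf1 19.7 ± 3.2 and 21.0 ± 3.3 CPM (SD, n = 9 each).

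At room temperature the knockout comparison called 2 of the 41 genes higher (4.88%) and 0 lower, where 2.35% of all genes tested were called higher and 0.259% lower. Of the 41, 9 had an unadjusted p under 0.05 in either direction, a cut at which all genes were not counted. DESeq2 called 2 higher and 0 lower, where it called 471 and 102 of 12901 genes. The 2 were Psmd14 (0.40 ± 0.10, SE; adjusted p = 0.0205, edgeR) and Psmc3ip (0.64 ± 0.16, SE; adjusted p = 0.0210). Both calls were lost in a fit of the 2 room-temperature groups alone, in which 0 of the 11066 genes tested was called in either direction. Psmd14 lost its call without any 1 of control_RT replicates 2, 3 and 6 or without KO16, and Psmc3ip without any 1 of those control libraries, KO16 or KO17, with adjusted p up to 0.0710 and 0.0650. Psmb9 (0.69 ± 0.25, SE; adjusted p = 0.135) and Psma5 (0.61 ± 0.25, SE; adjusted p = 0.199) missed the threshold, but Psmb9 passed without KO8 (adjusted p = 0.0438) and Psma5 without KO10 (adjusted p = 0.0285).

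After cold, knockout and control rats differed in 0 of the 41 genes by edgeR at an adjusted p under 0.05 and by DESeq2, with 2 at an unadjusted p under 0.05, Psmb7 and Psme2. In this comparison edgeR called 0.0345% of all genes tested higher and 0.0173% lower, and DESeq2 called 53 of 12901 higher and 379 lower. Psme2 ran from 42.1 to 85.8 CPM in control_4C and from 35.2 to 59.6 CPM in KO_4C (-0.36 ± 0.15, SE; adjusted p = 0.223, edgeR). Its highest value was that of control_4C replicate 3, the library with the highest sum of intestinal epithelial markers, and without that library the difference was -0.23 (adjusted p = 0.653). Psmb7 passed without control_4C replicate 7 (adjusted p = 0.0499). The interaction called 0 of the 41 by edgeR, where it called 0.00863% of all genes tested higher and 0.0173% lower. Of the 41, 7 had an unadjusted p under 0.05, a cut at which all genes were not counted. DESeq2 called 1, Psmd14, lower in the interaction, where it called 20 of 12901 genes higher and 86 lower.

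Psmd14, which rose in cold control rats, had a negative estimate in cold knockout rats that did not pass. It had 34.2, 36.6 and 47.4 CPM (lowest, median, highest) in control_RT, 46.2, 47.4 and 59.0 in control_4C, 37.6, 51.5 and 70.2 in KO_RT, and 39.9, 44.0 and 54.1 in KO_4C. The highest and the lowest KO_RT values were those of KO8 and KO10, and the other 7 lay between 48.9 and 56.0 CPM. The change in the cold was 0.36 ± 0.10 (SE) in control rats and -0.21 ± 0.09 (SE; adjusted p = 0.118) in knockout rats, and the interaction of -0.57 ± 0.14 (SE) had an unadjusted p of 0.000171 and an adjusted p of 0.0872 (edgeR). DESeq2 gave an adjusted p of 0.0221, and the edgeR value was under 0.05 without KO8, KO10 or control_RT replicate 4, with the smallest of 0.00930 without KO10. The change in knockout rats also passed without KO10 (adjusted p = 0.0338).

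Library state moved with these results. KO8 and KO10, the 2 knockout libraries low on the transcript-loss index, were both below the other 7 KO_RT libraries for 6 of the 9 genes that rose in cold control rats (Psma1, Psma2, Psma5, Psmb9, Psmd5 and Psmd8) and both above them for 0 of the 9. They were both above the other 7 for 4 of the 6 genes that fell (Psma6, Psma7, Psmc3 and Psmd4) and both below for 0 of the 6. Among the 26 genes not called, both lay below for 3 and above for 3. For these 10 genes the 2 low libraries thus differed from the other KO_RT libraries in the direction in which warm control libraries differed from cold ones. The same counts were not made over all genes that rose or fell, so they show nothing particular to proteasome genes.

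With the index as a covariate, 0 of the 15 calls in cold control rats were kept: 10 lost their adjusted p and 5 changed sign (Psma1, Psma2, Psma5, Psmc3 and Psmd5), with Psma5 at -0.10 and Psmd8 at 0.14. In that fit 186 of the 11594 genes were called higher and 254 lower in cold control rats. Without the 4 libraries lowest on the index, all 15 were called in the same direction, with Psma5 at 0.76 and Psmb9 at 0.88. The index and the temperature do not overlap in control rats, so that the 2 cannot be told apart there. In knockout rats Psmc6, Psmd8 and Psmd2 kept their calls in both fits, while Psma2, Psmc2 and Psmd3 lost them in both.

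**Figure D4:**
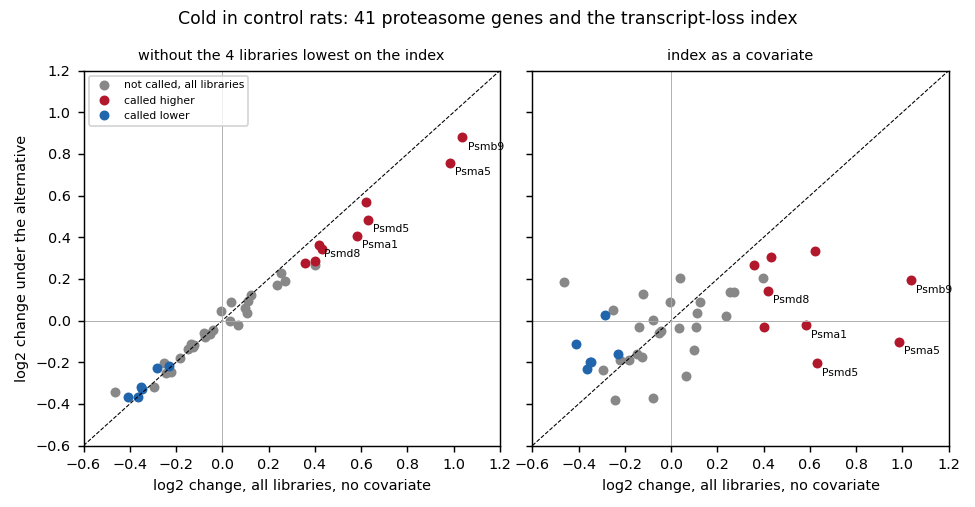
Log2 change in cold control rats for each of the 41 genes under 2 alternatives (y axis) against the fit of all libraries with no covariate (x axis); red and blue mark genes called higher and lower in the latter, and the dashed line marks equality. Without the 4 libraries lowest on the index the points follow the line, and with the index as a covariate the 9 red points lie between -0.20 and 0.34.

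The 4 libraries also altered the genotype comparison. Without them, knockout against control at room temperature called 5 members higher (Psma5, Psmb9, Psmc3ip, Psmd5 and Psmd14) and 2 lower (Psmc3 and Psmd4), where 588 and 120 of 11886 genes were called. The interaction then called Psma5 and Psmd14 lower, where it called 253 of 11886 genes lower and 35 higher.

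KO8 stood apart within the ATPase ring. Its Psmc1 level was 1286 CPM, where the other 8 KO_RT libraries ran from 280 to 447 CPM. Psmc5 was at 543 CPM against at most 297, Psmc3 at 555 against at most 404, and Psmb6 at 167 against at most 114. The 7 Psmc genes summed to 2605 CPM in KO8 and to between 1097 and 1369 CPM in the other 8.

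The 41 genes varied together only loosely from library to library. After the group means were removed, the median pairwise Pearson r among the 34 alpha, constitutive beta, Psmc and Psmd genes was 0.127 over 32 libraries (Spearman's rho 0.119), and 0.0844 without the 2 libraries farthest from the median of their mean score. Single pairs ran from -0.85 to 0.88. Psmb7 (r = 0.778), Psmd1 (0.772) and Psmb1 (0.679) followed the mean of the others most closely, while Psmb3 (-0.485) and Psmd7 (-0.307) ran against it. Within control_4C, replicate 3 was the lowest library for 21 of the 41 genes and replicate 7 the highest for 14. Within KO_4C, replicate 7 was the highest for 21. All these values share the libraries, their depth and their scaling, and are given as a description.

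The 8 other genes whose levels followed that mean most closely, of 5597 compared, were Ube2m, Nol3, Adgrf5, Klf9, Mpdu1, Des, Slc2a4 and Eif3j, with r from 0.745 to 0.787 over 32 libraries after removal of group means. The median r of all genes compared was 0.0872. Ube2m is the E2 enzyme that attaches NEDD8, Des encodes the intermediate filament desmin, and Slc2a4 the glucose transporter GLUT4. Their cold changes did not run alike: Adgrf5 rose in control rats by 0.64 (adjusted p = 0.000201, edgeR) and Klf9 by 0.47 (adjusted p = 0.0252), while Ube2m was at -0.08 (adjusted p = 0.745).

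Factors that control, assemble or feed the proteasome were read from lists. Of 8 transcription regulators tested, 2 rose and 0 fell in cold control rats. Nfe2l1, the main factor for subunit genes, was level at 631 ± 83 CPM in control_RT and 631 ± 112 CPM in control_4C (SD, n = 7 each), and its mean in knockout rats went from 674 ± 132 to 653 ± 89 CPM (SD, n = 9 each). Adjusted p was 0.998 and 0.829 (edgeR), and the sign turned positive with library totals alone. Nfe2l2 rose in control rats, from 28.9 ± 6.6 to 43.9 ± 7.1 CPM (SD, n = 7 each; 0.60 ± 0.12, SE; adjusted p = 0.000414), as did Ngly1, which deglycosylates Nfe2l1 (0.51 ± 0.12, SE; adjusted p = 0.00268). In knockout rats 0 rose and 1 fell, Ddi2, the protease that cleaves Nfe2l1 (-0.24 ± 0.08, SE; adjusted p = 0.0352). The Ddi2 call was lost without any 1 of KO_4C replicates 4, 5, 8 and 9 (adjusted p up to 0.0804).

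Of 5 assembly genes, Akirin2, needed for import of proteasomes into the nucleus, rose in cold control rats without overlap, from 37.2, 51.6 and 74.1 CPM (lowest, median, highest) to 81.2, 116 and 136 CPM (1.01 ± 0.19, SE; adjusted p = 0.000397, edgeR). In cold knockout rats it changed by 0.35 ± 0.17 (SE; adjusted p = 0.164) and Psmg2, a chaperone of the alpha ring, rose by 0.50 ± 0.14 (SE; adjusted p = 0.0129). Of the 2 subunits outside the name pattern, Sem1 rose in control rats (0.56 ± 0.17, SE; adjusted p = 0.0185), and the ubiquitin receptor Adrm1 did not pass (-0.20 ± 0.11, SE; adjusted p = 0.234). Of 10 proteasome-bound enzymes and scaffold genes, Zfand2a rose (0.70 ± 0.19, SE; adjusted p = 0.00898) and Usp14, the deubiquitinase of the base, fell (-0.27 ± 0.10, SE; adjusted p = 0.0453) in control rats, and Zfand5 rose in knockout rats (0.35 ± 0.10, SE; adjusted p = 0.0178). The Usp14 call was lost, at an adjusted p of up to 0.115, without any 1 of control_RT replicates 1, 2, 3, 5 and 6, control_4C replicates 1, 4, 5, 6 and 7 or KO_4C replicate 4, and that of Zfand5 without KO_4C replicate 7 (0.0526).

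Among the ubiquitin, E1 and shuttle genes listed, the shuttle Ubqln2 rose in control rats (0.95 ± 0.21, SE; adjusted p = 0.00141, edgeR). Of 8 genes of the VCP segregase, which pulls ubiquitin-tagged proteins out of complexes, Vcp itself changed by 0.15 ± 0.07 (SE; adjusted p = 0.149) in control rats and rose by 0.27 ± 0.07 (SE; adjusted p = 0.00367) in knockout rats. Its cofactors Ubxn4 and Nsfl1c rose in control rats (0.31 and 0.42; adjusted p = 0.0128 and 0.0284), and Faf1 fell in knockout rats (-0.48; adjusted p = 0.0232). Nsfl1c lost its call without control_RT replicate 2 or control_4C replicate 1 or 4 (up to 0.0803), and Faf1 without KO_4C replicate 5 (0.0525).

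Of 10 muscle ubiquitin ligases, 1 rose and 2 fell in cold control rats, and 1 rose and 1 fell in cold knockout rats. Fbxo30 rose in both, by 0.91 ± 0.27 (SE; adjusted p = 0.0136, edgeR) and 0.75 ± 0.23 (SE; adjusted p = 0.0273), and Mul1, the ligase of the mitochondrial outer membrane, fell in both, by 0.58 and 0.43 on the log2 scale (adjusted p = 0.000449 and 0.00266). The Fbxo30 call in knockout rats was lost without KO9, KO10 or KO_4C replicate 7 or 9 (up to 0.0588). Of the atrophy ligases, Fbxo32 fell in control rats from 410 ± 78 to 314 ± 94 CPM (SD, n = 7 each; adjusted p = 0.0372), and Trim63 was at 325 ± 27 and 322 ± 41 CPM (SD, n = 7 each; adjusted p = 0.955). The Fbxo32 call was lost, at up to 0.104, without any 1 of control_RT replicates 1, 6 and 7 or control_4C replicates 1, 2 and 3. Of 13 antigen-processing and interferon genes, 3 rose in control rats (B2m by 0.80 ± 0.15, Irf1 by 0.39 ± 0.11 and Ifit3 by 0.76 ± 0.27, SE; adjusted p = 0.000409, 0.0111 and 0.0460) and B2m and Irf1 rose in knockout rats, by 0.77 ± 0.13 and 0.40 ± 0.10 (SE; adjusted p = 0.000134 and 0.00493). The Ifit3 call was lost in 14 of the 32 fits without 1 library, at an adjusted p of up to 0.115: control_RT replicates 1, 2, 3 and 7, control_4C replicates 1, 4, 5 and 7, KO11, KO13, KO14, KO17, and KO_4C replicates 6 and 7.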

How the data were processed

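Gastrocnemius RNA of 32 rat samples was sequenced from the 3′ end (50 bp reads from 500 ng of RNA, per the labels' protocols). The authors deposited a table of counts per gene and a second table whose signal values are the same counts divided by a size factor per library (0.523 to 2.06). The submitters' processing notes name R 3.4.3, DESeq2 1.18.1 and the build Rnor_6.0, and the sources used here give no aligner, counter or strand setting. Every deposited count is even (0 odd counts), for which no source gives a reason, and halved counts were an alternative. Gene symbols came from the second table (11693 given). Of the 41 genes, 18 share a name with RefSeq pseudogenes, between which reads may be split.

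Counts were fitted in edgeR 4.0.16 (R 4.3.3) with TMM factors, a filter on low counts (minimum 10, smallest group of 7) that kept 11594 of 12901 genes, means for 4 groups, a robust quasi-likelihood test and Benjamini-Hochberg adjustment at 0.05. The SE is the absolute log2 change over the root of F. Log2 CPM used a prior count of 2. Ratios were tested with exact permutation tests (count + 1, scipy 1.17.1). With Psmb8 not analysed here, 8 such tests were made. Alternatives used RLE factors, DESeq2 1.42.0, sva 3.50.0, other filters and thresholds, the transcript-loss index, and each library left out. No 2 libraries of a group agreed within counting noise (smallest chi-square per degree of freedom 5.70).

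Columns KO8 and KO9 match the titles of 2 samples and the descriptions of 2 others of the same group, and were given the group but no replicate number. Named genes were the catalytic, activator and inhibitor genes, Psmd4, Psmd11 and Psmd14, in each class and contrast the 3 genes with the lowest p among those called, and up to 3 such genes of each pathway list. Some genes of the pathway lists are not reported here. Others named with values were chosen after their values were seen. The members and lists were chosen with earlier results of these data known. The fit was tested on simulated counts with changes put into the cold control group. At an adjusted p under 0.05 it recovered 6 of 50 genes changed 1.3-fold and 20 of 50 changed 1.5-fold. It recovered 33 of 50 changed 2-fold and 42 of 50 changed 3-fold, and 4 of its 105 calls were false. A gene that did not pass may thus have changed by such amounts. The pairing check gave correlations of same-numbered libraries of -0.22 to 0.19 in 7 control pairs and of -0.00 to 0.15 in 7 knockout pairs, so the numbers were not taken to pair samples.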

Additional observations from a re-analysis of the deposited data

Results flagged for a closer look

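Within groups, 14 of 196 sets of values held a library far from the others of its group by Dixon's criterion, 10 of them levels of single proteasome genes. Chance alone marks about 1 set in 20. KO8 accounted for 6 of the 14. Its Psmc1 level was 1286 CPM (others 280 to 447), its Psmc3 level 555 CPM (298 to 404), its Psmc5 level 543 CPM (246 to 297) and its Psmb6 level 167 CPM (88.7 to 114). The sum of its 7 Psmc genes was 2605 CPM (1097 to 1369) and that of all 41 genes 8064 CPM (6577 to 7117).

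KO_4C replicate 7 was high in Psmc3, at 385 CPM (others 301 to 336), and in Psmd11, at 402 CPM (202 to 283). Control_RT replicate 2 was high in Psmc3, at 480 CPM (359 to 410), and low in the log2 ratio of Psmb9 to Psmb6, at -6.03 (-4.79 to -4.02). Control_4C replicate 6 had 231 CPM of Psmb4 (155 to 185), and control_4C replicate 3 had 127 CPM of Psmd12 (179 to 208). Control_RT replicate 1 had 8.43 CPM of Psmc3ip (5.34 to 6.23). KO16 had a sum of the 13 Psmd genes of 2474 CPM (2171 to 2323).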

How the results depend on the processing

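The counts of members called higher and lower in the cold were 9 and 6 in control rats and 5 and 1 in knockout rats. With the transcript-loss index as a covariate they were 0 and 0, and 2 and 1, and the room-temperature genotype count went from 2 to 0. Of all 11594 genes that fit called 186 and 254 in control rats, 752 and 588 in knockout rats, and 1 and 0 between genotypes at room temperature. With library totals alone (an alternative chosen after seeing the data) they were 15 and 2, and 10 and 0. At an adjusted p of 0.01, 3 fell in control rats, 2 rose in knockout rats and 0 differed between genotypes at room temperature. At that cut 453 of all 11594 genes fell in control rats, 435 rose in knockout rats, and 21 were higher and 0 lower between genotypes. With only the groups compared, 2 rose in knockout rats and 0 differed between genotypes at room temperature, where 726 of 10891 and 0 of 11066 genes did. Without the 4 libraries lowest on the index, 2 rose in knockout rats, 5 were higher and 2 lower in knockout rats at room temperature, and the interaction called 2 lower. Of all 11886 genes tested there, 776 rose in cold knockout rats. RLE factors, TMM without the 20 most abundant genes, DESeq2 and halved counts gave 2 lower in cold knockout rats, Psma6 joining Psmd2. In the same order 795 of 11594, 789 of 11594, 931 of 12901 and 801 of 10336 genes fell. DESeq2 called 1 lower in the interaction. Without Psmc3ip (also chosen after seeing the data), 1 was higher in knockout rats at room temperature. Except where a value shows it, the cause was not tested.

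Same-numbered libraries were little alike: 1 of 7 control pairs and 2 of 7 knockout pairs correlated over 0.1, and not every library correlated best with its own number. Such correlations cannot exclude that the numbers mark the same rats. With the replicate block, 12 members rose and 7 fell in cold control rats and 3 rose and 1 fell in cold knockout rats, where KO8 and KO9, with no number, drop out. Of all 11594 genes, 1539 rose and 1093 fell in control rats in that fit, and 661 rose and 468 fell in knockout rats. The block gave a Psmb9 to Psmb6 difference of 1.48 in control rats with an adjusted p of 0.0625. It came from an exact sign-flip test, whose unadjusted p has a floor set by the 7 pairs. The block turned Nfe2l1 to 0.072 and Psme2 to -0.064 in cold knockout rats.

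Without the 4 libraries, the ratio of Psmb9 to Psmb6 differed between genotypes at room temperature by 0.81 and passed, while that of Psmb10 to Psmb7 was 0.016 in cold control rats, against -0.06, and -0.49 and -0.56 between genotypes at room temperature and 4 °C, both passing. Without them Nfe2l1 in cold knockout rats was 0.058.

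With the index as a covariate, these log2 changes in cold control rats turned sign: Psma1 -0.021, Psma2 -0.031, Psma5 -0.10, Psmb7 -0.14, Psmc3 0.027, Psmd5 -0.20, Sem1 -0.17, Nsfl1c -0.074, Adrm1 0.000786 and Nfe2l1 0.20. In the same fit Nfe2l1 was 0.036 in cold knockout rats and Psma5 -0.27 between genotypes at room temperature. Nfe2l1 in cold control rats was 0.00483 with 1 surrogate variable and 0.15 with library totals, and 0.054 in cold knockout rats with library totals. Trim63 in cold control rats was 0.15 with library totals. Usp14 in cold knockout rats, 0.01 in the fit reported, was -0.012 with RLE factors, -0.00767 without the 20 most abundant genes in the factors, -0.012 with DESeq2, -0.00939 with only the groups compared and -0.012 with halved counts.

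Leaving out 1 library at a time gave 7 to 11 members higher and 5 to 9 lower in cold control rats. In cold knockout rats it gave 2 to 6 and 1 to 2. Between genotypes at room temperature it gave 0 to 3 and 0 to 2. At 4 °C 0 to 1 were higher, and in the interaction 0 to 1 were lower. The counts over all genes in these fits are not reported here, so the ranges show nothing particular to proteasome genes. The ratio of Psmb9 to Psmb6 ran from 1.24 to 1.57 and from 0.51 to 0.83 in the cold (control, knockout), and from 0.45 to 0.91 and -0.17 to 0.021 between genotypes (room temperature, 4 °C). The ratio of Psmb10 to Psmb7 ran from -0.22 to 0.034, -0.26 to -0.087, -0.53 to -0.35 and -0.65 to -0.40 in the same order. Genes whose sign turned were Nfe2l1 (-0.071 to 0.064 in control and -0.11 to 0.023 in knockout rats), Psmb10 (-0.046 to 0.093 and -0.024 to 0.10), Psmb7 in control rats (-0.030 to 0.18), Psme2 in knockout rats (-0.022 to 0.082), Trim63 in control rats (-0.069 to 0.015) and Usp14 in knockout rats (-0.039 to 0.033).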
